A study of Saccharomyces cerevisiae with 10 samples.

Results

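In the nuclear genome of Saccharomyces cerevisiae, 359 wide stretches of open chromatin carried no listed peak of the origin recognition complex (ORC) in either WT or Orc4-IHΔ cells. They were found by merging the lines of 2 ATAC-seq peak lists wherever lines overlapped or touched, which gave 2716 regions. A region was kept when it spanned 500 bp or more, held lines of both ATAC-seq lists, and overlapped no line of the WT or the mutant ORC list by even 1 bp. Of the 2716 merged regions, 48.3% had no ORC peak, against 41.2% of the 2101 regions found in both ATAC-seq lists and 29.9% of the 1200 that were also 500 bp or more. The 359 regions are this last share (exact 95% binomial interval 27.3 to 32.6%, counting error only), and the other 841 wide regions, with an ORC peak, are the set they are compared with. Width, presence in both ATAC-seq lists and absence from both ORC lists chose the regions, so those values and the fold enrichments that come with them are a description and were not tested.

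All cells were of the W303-1a background and carried the endogenous ORC4 gene under the GALS promoter, so that it was shut off in glucose, an ectopic copy under the native ORC4 promoter at ura3, and a MYC tag on Orc6. In WT the ectopic copy was ORC4, and in Orc4-IHΔ it lacked the insertion helix (IH), a short helix of the yeast Orc4 subunit that contacts DNA. The cells were arrested for about 3 h in G2/M by benomyl, which blocks microtubules, at 20 µg/ml. Each ORC list stands for 2 libraries by the study's design, already combined by the authors, and each ATAC-seq list for 1 library. Neither assay therefore has a spread between replicates here.

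ORC is the loader of the MCM helicase and marks the places where DNA replication can start. In budding yeast it finds a T-rich consensus element in a nucleosome-depleted region (NDR), whereas human ORC has no such strict sequence preference and is found mainly in open chromatin. The transposase of ATAC-seq cuts where DNA is free of nucleosomes, so its peaks mark open DNA, which in yeast lies mostly at promoters, origins and genes for small RNAs. A wide open region without ORC is thus a place that is accessible but where no ORC peak was listed.

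The ATAC-seq lists had 2480 lines under the WT label and 2457 under the Orc4-IHΔ label, and the ORC lists had 618 lines in WT and 2219 in the mutant. For ATAC-seq, the strain in a sample's label is the opposite of that in the name of its list. The lists are therefore called WT-labelled and Orc4-IHΔ-labelled after the samples, and the direction of any difference between them is uncertain as to strain. The number of ATAC-seq peaks that the study states for each strain goes with the names of the lists and not with the labels, so the WT-labelled list may be that of Orc4-IHΔ cells and the other that of WT. The names of the ORC lists read as if peaks at RNA genes had been left out, in which case an ORC peak at such a gene would not be listed. How many of the 359 regions this touches was not tested, since no annotation of the lists' build, sacCer2, was used here. The lists give no read totals, and how deeply a region without an ORC peak was sequenced is unknown. All coordinates are in sacCer2, 1-based.

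The regions without ORC were mostly narrow and weak for wide open regions. Their width ran from 502 to 1789 bp, with a median of 669 bp and quartiles of 583.5 and 869.5 bp, whereas the wide regions with ORC ran from 500 to 3259 bp with a median of 901 bp. In the WT-labelled list their ATAC-seq fold enrichment, the authors' ratio of signal at the summit over local background, ran from 1.65 to 23.1 with a median of 4.12. In the Orc4-IHΔ-labelled list it ran from 1.63 to 15.5 with a median of 3.87. The corresponding medians of the wide regions with ORC were 5.61 and 5.65, higher in both lists. When each region was given the lower of its 2 fold enrichments, the median was 3.54 without ORC (quartiles 2.59 and 5.08) and 5.22 with ORC (quartiles 3.48 and 7.37). The middle ranges of the 2 sets overlapped widely. Regions under 500 bp without ORC, of which there were 506 in both lists, were weaker still, with a median of 2.38. The median −log10 p of the regions without ORC was 60.6 in the WT-labelled list and 49.8 in the Orc4-IHΔ-labelled list, so most were far past the limit of the peak calling.

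Width and fold enrichment each went along with the lack of an ORC peak. Among wide regions of 500 to 599 bp, 107 of 221 (48.4%) had no ORC peak, and among those of 600 to 699 bp, 92 of 196 (46.9%). The share was 31.4% at 700 to 799 bp, 25.3% at 800 to 999 bp and 15.5% at 1000 to under 1300 bp. At 1300 bp or more, 22 of 181 (12.2%) had none. By the lower fold enrichment, the share was 61.1% (33 of 54) under 2, 45.6% from 2 to under 3, 39.0% from 3 to under 4 and 30.6% from 4 to under 5. Above 5 it no longer fell in order: 19.3% from 5 to under 6, 16.1% from 6 to under 8, 22.7% (25 of 110) from 8 to under 10, and 7.06% (6 of 85) at 10 or more. By width, most of the fall lay between 600 and 1300 bp. Since width was part of how the regions were chosen, these shares are a description. A wider region also has more bases that an ORC line could overlap, and the shares were not corrected for this.

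**Figure D1:**
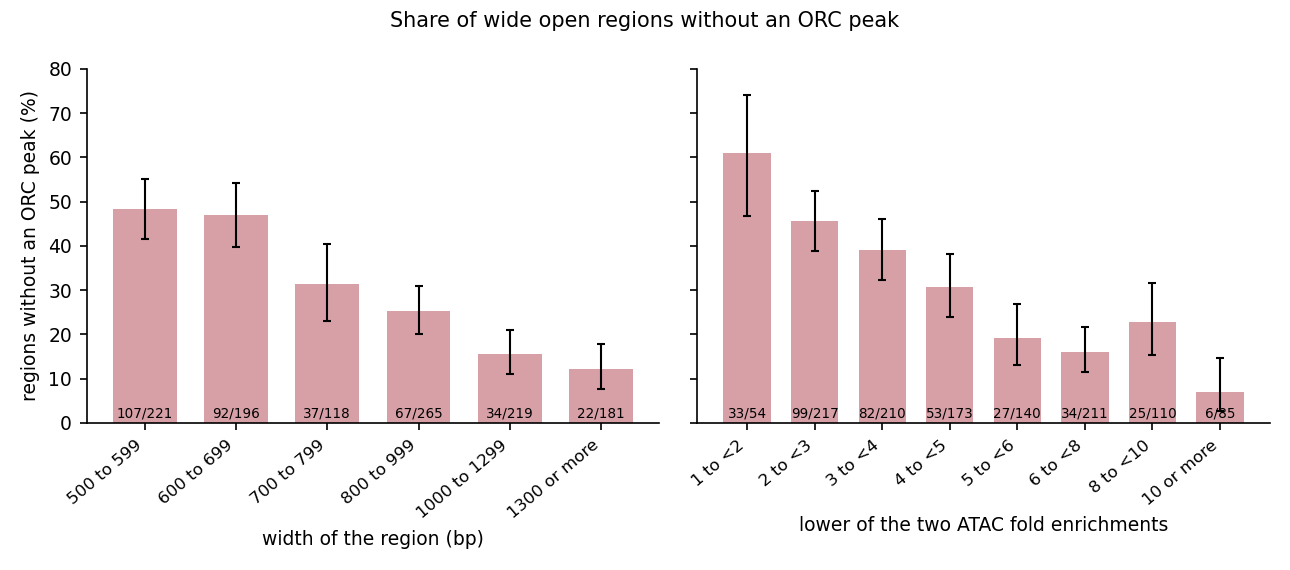
Share of the 1200 wide open regions of both ATAC-seq lists that had no ORC peak (vertical axis, percent), by region width in bp (left) and by the lower of the fold enrichments in the ATAC-seq lists (right). Bars start at 0, lines are exact 95% binomial intervals, and the counts stand inside the bars. The share was 48.4% in the narrowest bin and 12.2% in the widest.

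Both properties were related to each other, so they were also crossed. Across the regions without ORC, width and the lower fold enrichment had a Spearman's rho of 0.39 (359 regions, which share the 2 libraries). Of 172 regions of 500 to 699 bp with a lower fold enrichment under 3, 97 (56.4%) had no ORC peak. At the same width but a fold enrichment of 5 or more, it was 32 of 84 (38.1%). Of 278 regions of 1000 bp or more with a fold enrichment of 5 or more, 28 (10.1%) had none, the lowest of the 9 combinations. At any given width range the regions without ORC were the weaker set: their median lower fold enrichment was 2.87 against 3.24 at 500 to 599 bp, 4.17 against 5.47 at 800 to 999 bp, and 5.31 against 6.57 at 1300 bp or more.

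A few regions without ORC were nevertheless among the widest and most open. The widest lay on chromosome VII from 323363 to 325151, spanned 1789 bp and had fold enrichments of 6.36 in the WT-labelled list and 7.32 in the Orc4-IHΔ-labelled list. The next, of 1743 bp, lay on chromosome XIII from 807635 to 809377, with 4.30 and 4.66. The third lay on chromosome IX from 267714 to 269398, with 6.96 and 6.45. The other 7 of the 10 widest spanned 1566 to 1646 bp, and their lower fold enrichments ran from 3.16 to 7.18. None of the 10 differed by 1.5-fold or more between the ATAC-seq lists. In all, 56 of the 359 (15.6%) were 1000 bp or wider, against 344 of the 841 with ORC (40.9%).

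The 2 strongest regions sat near the ends of a chromosome. On chromosome XII, from 5498 to 6150, a region of 653 bp reached 23.1 in the WT-labelled list and 15.5 in the Orc4-IHΔ-labelled list, and its nearest ORC peak was 5274 bp away. At the other end of the same chromosome, the region from 1071365 to 1072009 had 15.0 and 14.5. Its right edge is the last listed position on that chromosome, so its full width may not be covered by the lists. The 4 other regions with a lower fold enrichment of 10 or more were internal. They lay on chromosome XV from 117483 to 118343 (14.7 and 11.5), X from 390944 to 392418 (11.2 and 12.0), II from 193137 to 194335 (10.8 and 11.4), and VI from 182493 to 183442 (10.4 and 10.0). Of the 359 regions, 92 (25.6%) had a lower fold enrichment of 5 or more, against 454 of the 841 with ORC (54.0%).

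The width threshold did not fall at a gap in the values. The narrowest regions kept had 502, 503 and 504 bp, with fold enrichments in the WT-labelled list and the Orc4-IHΔ-labelled list of 2.52 and 3.17, 2.64 and 3.79, and 3.37 and 3.14. The 3 widest that met every other condition had 499, 499 and 497 bp. Their fold enrichments were 4.42 and 4.76, 9.62 and 8.28, and 4.26 and 4.07, higher than those just inside. The sets were not alike in coverage. The regions of 502 and 503 bp were covered over 193 and 186 bp in the WT-labelled list, whereas those outside were covered over 450 to 499 bp in each list.

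The ATAC-seq lists were then compared at these regions. With 1 library behind each list, a 1.5-fold difference was used to describe single regions, and no test was made. The typical region without ORC differed little between the lists, since the median log2 ratio (Orc4-IHΔ-labelled list minus WT-labelled list) was -0.02, against 0.02 with ORC and 0.02 over all 2101 regions. Its sign turned at a width limit of 750 bp, where it was 0.026. The ratios were more spread, however, with an SD over regions of 0.44 without ORC and 0.29 with ORC, and the spread was mostly to 1 side. Both lists covered 500 bp or more in 209 of the 359 regions and in 711 of the 841 with ORC. The SDs were not recomputed for these, so the spread is tied to how regions were chosen. Of the 359 regions, 59 (16.4%, exact 95% interval 12.8 to 20.7%) were at least 1.5-fold lower in the Orc4-IHΔ-labelled list, where the share over all 2101 regions of both lists was 5.43%. In 44 of the 59, the stretch covered in the Orc4-IHΔ-labelled list was under 500 bp, so that they met the width limit through the WT-labelled list, in which they are high. With 500 bp or more required in each list, a restriction chosen after seeing the data, 15 of 209 regions without ORC (7.18%) and 15 of 711 with ORC (2.11%) were lower. Without that restriction the share was 3.21% (27 of 841) in wide regions with ORC, 3.36% (17 of 506) in narrower regions without ORC, and 2.78% (11 of 395) in narrower regions with ORC. In the opposite direction, 8 of the 359 (2.23%) were at least 1.5-fold higher in the Orc4-IHΔ-labelled list, where the share over all regions was 2.00%. Of the 114 regions lower in that list, 59 were thus wide and without ORC.

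**Figure D2:**
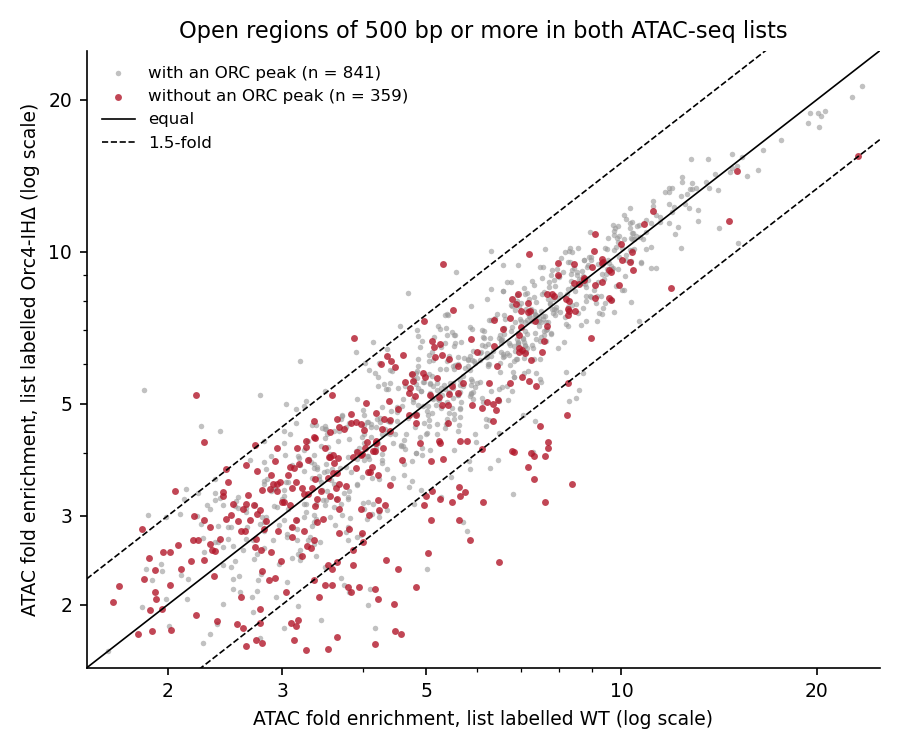
ATAC-seq fold enrichment of the 1200 wide open regions in the WT-labelled list (horizontal, log scale) and the Orc4-IHΔ-labelled list (vertical, log scale), 1 point per region, red without and grey with an ORC peak. The solid line marks equal values and the dashed lines 1.5-fold. Of the red points, 59 lie on or below the lower dashed line and 8 on or above the upper.

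The strength of the lower group depended on the measure, and each measure enters the ratio that picked the group. Its fold enrichment in the WT-labelled list ran from 2.64 to 8.40. The median there was 4.57, against 4.05 in the regions within 1.5-fold. In the Orc4-IHΔ-labelled list it ran from 1.63 to 5.50 with a median of 2.45. The lower of the 2 fold enrichments had a median of 2.45, against 3.84 in the regions within 1.5-fold. By that measure the group held 14 of 33 regions under 2, 22 of 99 from 2 to under 3, and 0 of 34 from 6 to under 8. When regions were grouped by the higher of their 2 fold enrichments, the share at least 1.5-fold lower was 7.14% (4 of 56) under 3, 19.1% (18 of 94) from 3 to under 4, 21.2% (21 of 99) from 4 to under 6 and 20.0% (16 of 80) from 6 to under 9. It was 0 of 30 at 9 or more. Wide regions with ORC, in the same groups, gave 1.72%, 4.84%, 4.74%, 3.38% and 0 of 161. These shares include the regions that were wide in the WT-labelled list only. With 500 bp or more in each list, the share without ORC was 0 of 25 under 3, 3.85% (1 of 26) from 3 to under 4, 7.58% (5 of 66) from 4 to under 6 and 14.1% (9 of 64) from 6 to under 9, against 0 of 25, 0 of 85, 3.76% (7 of 186) and 3.14% (8 of 255) with ORC. These counts are small, and most of the difference left lay at 6 to under 9. By width, and without the restriction, the share ran between 13.4 and 22.8% in every range from 500 to under 1300 bp, and was 0 of 22 at 1300 bp or more. In wide regions with ORC it was at most 5.26% in any width range.

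**Figure D3:**
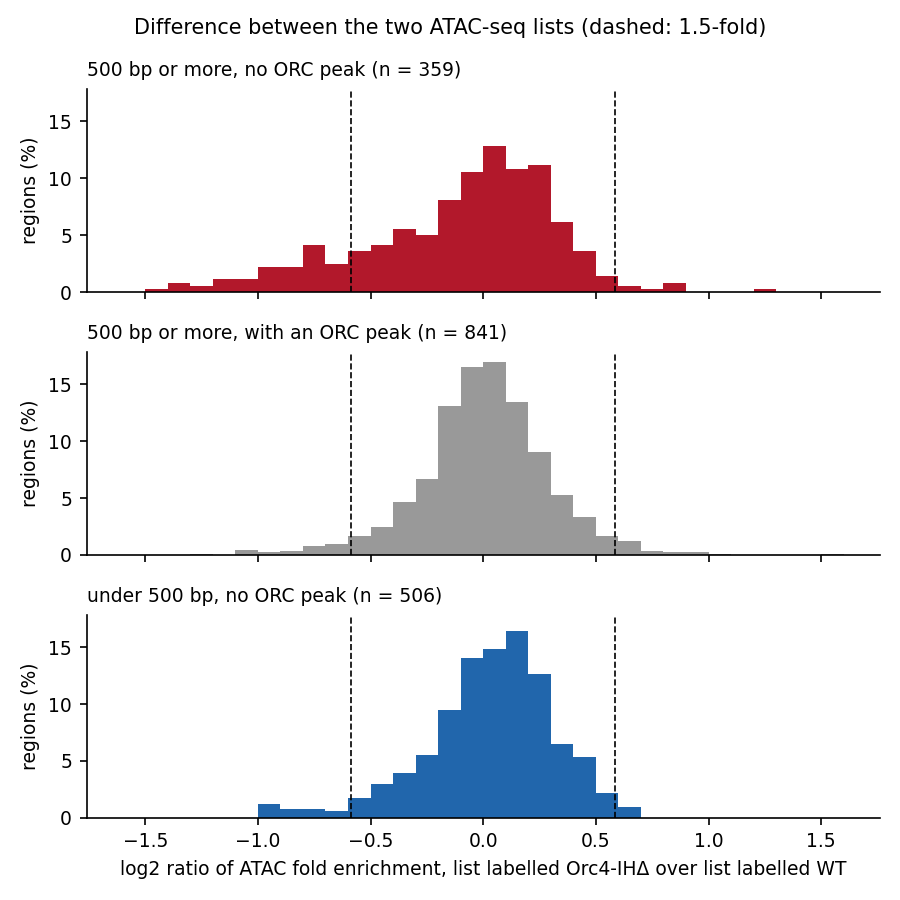
Log2 ratio of ATAC-seq fold enrichment, Orc4-IHΔ-labelled list over WT-labelled list (horizontal), as the percent of regions per bin (vertical), for wide regions without ORC (n = 359), wide regions with ORC (n = 841) and regions under 500 bp without ORC (n = 506). Dashed lines mark 1.5-fold. A left tail of 16.4% past the dashed line is seen in the first set, against 3.21% and 3.36% in the others. In 44 of the 59 regions of that tail the Orc4-IHΔ-labelled list covers under 500 bp, and with 500 bp or more in each list the share is 7.18% without and 2.11% with ORC.

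The regions farthest apart between the lists were plain in their values. On chromosome IV, from 946238 to 946874, the fold enrichment was 6.47 in the WT-labelled list and 2.43 in the Orc4-IHΔ-labelled list, a log2 ratio of -1.41. On chromosome VII, from 828194 to 828831, it was 4.57 and 1.75 (-1.39). On chromosome XIII, from 372114 to 372675, it was 4.48 and 1.77 (-1.34). All 3 were single stretches of 562 to 638 bp in the WT-labelled list. The Orc4-IHΔ-labelled list covered 343, 152 and 324 bp of them. The next were on chromosome X from 517378 to 518016 (4.16 and 1.67) and on chromosome III from 295375 to 296098 (8.40 and 3.46). There the Orc4-IHΔ-labelled list covered 285 and 483 bp. All 5 thus met the width limit through the WT-labelled list, in which they are high. The largest difference the other way was on chromosome XII from 21471 to 22491, with 2.21 in the WT-labelled list and 5.20 in the Orc4-IHΔ-labelled list (log2 ratio 1.24). The WT-labelled list covered 327 bp of it, so it met the width limit through the Orc4-IHΔ-labelled list. The next 4 in that direction had log2 ratios from 0.71 to 0.88. Chromosome III held a region of each kind side by side: 2614 bp beyond the end of the region at 295375, the region from 298713 to 299705 was 5.31 in the WT-labelled list and 9.46 in the Orc4-IHΔ-labelled list.

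The step size of the values gave a view of the counting error. About 55% of ATAC-seq fold enrichments fell on whole multiples of a fixed step (54.8% of lines in the WT-labelled list and 55.8% in the Orc4-IHΔ-labelled list, within 0.02 of a step, where that tolerance alone would give 4%). At 194 of the 359 regions both values did so, with a median of 182.5 steps in the WT-labelled list and 155 in the Orc4-IHΔ-labelled list. If 1 step is taken as 1 counted cut, which the lists do not state, the region on chromosome IV at 946238 held 287 counts against 104, a ratio of 0.375 with a 95% counting interval of 0.297 to 0.471. The region on chromosome XII at 21471 held 98 against 223, a ratio of 2.36 (1.85 to 3.02). Both regions were named for their large ratios, so the intervals only give the precision of the values. They cover counting within each library and not the difference between cultures.

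The listed width changed together with the fold enrichment. In all 59 regions the stretch covered in the Orc4-IHΔ-labelled list was the narrower. It was under 500 bp in the 44 given above, whereas the stretch in the WT-labelled list was under 500 bp in none. Part of the lower group was thus fixed by how regions were chosen. Over all 359, the covered stretch was under 500 bp in 45 regions in the WT-labelled list and in 109 in the Orc4-IHΔ-labelled list.

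The position of the open site within each region was mostly shared by the lists. The strongest summits of the lists lay within 50 bp of each other in 279 of 359 regions (77.7%), against 626 of 841 with ORC (74.4%), and the median gap was 7 bp. In 35 regions (9.75%) they were over 200 bp apart. The extent was shared less well. The median share of a region's bases covered in both lists was 78.3% without ORC and 88.8% with ORC. It was under 50% in 56 regions without ORC (15.6%) and in 35 with ORC (4.16%), against 48 of 506 narrower regions without ORC (9.49%) and 7.90% of all 2101 regions. A region's width was that of the merged lists, so a region could reach 500 bp through 1 list. Both lists covered 500 bp or more in 209 of the 359 regions (58.2%) and in 711 of the 841 with ORC (84.5%). The shared extent is thus tied to how regions were chosen. Neither it nor the correlations below were recomputed with 500 bp in each list. Fold enrichments of the lists correlated, on the log2 scale, with a Pearson's r of 0.80 over the 359 regions and 0.91 over the 841 with ORC (Spearman's rho 0.77 and 0.92). Regions are not replicates and share the 2 libraries, so no p is given. Most regions were single peaks, since 22 of the 359 had more than 1 line in a list. The single region with 3 lines in a list lay on chromosome XV from 722052 to 723636.

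Most of the 359 regions lay within 5000 bp of ORC. The nearest peak of either ORC list was a median of 2038 bp away, edge to edge (range 8 to 27624 bp). It lay within 200 bp in 15 regions (4.18%), within 1000 bp in 99 (27.6%) and within 5000 bp in 284 (79.1%). By list, the median distance was 6847 bp to a WT peak and 2508 bp to a mutant peak, and the mutant peak was the nearer in 253 of 359 regions (70.5%). The mutant list has 2219 lines and the WT list 618, which alone would shorten the distance to the mutant list, and the distances were not corrected for this. Nearness to ORC was not particular to these regions. In the 506 narrower regions without ORC the median distance was 2393 bp to either list and 2644 bp to the mutant list. To the WT list it was longer there, 8569.5 bp.

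**Figure D4:**
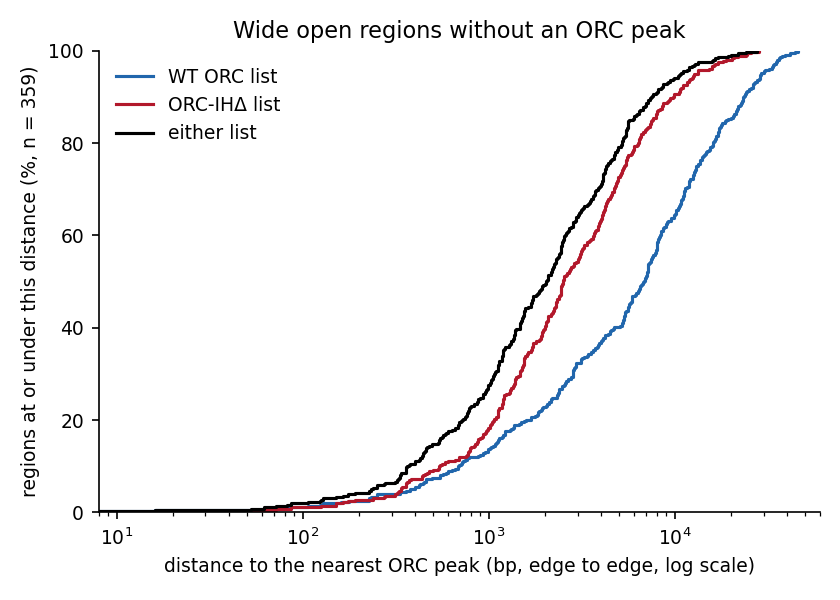
Cumulative percent of the 359 wide open regions without an ORC peak (vertical) within a given distance of the nearest ORC peak in bp (horizontal, log scale, edge to edge), for the WT list, the ORC-IHΔ list and either list. The median distance is 6847 bp for WT, 2508 bp for ORC-IHΔ and 2038 bp for either.

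At the near end, the absence of ORC rested on a few bp. The region on chromosome XV at 722052, 1585 bp wide, lay 8 bp from a WT peak, whose fold enrichment was 1.86. The region on chromosome II from 605605 to 606257 lay 16 bp from a WT peak and 44 bp from a mutant peak, with fold enrichments of 1.82 and 1.95. Those ORC peaks were weak, as the median over the WT list was 2.90 and over the mutant list 3.15. The next nearest were on chromosome X at 402323 (53 bp), XII at 241650 (62 bp) and VII at 205448 (72 bp). Their nearest ORC peaks, from the mutant, WT and mutant list, had fold enrichments of 1.92, 4.77 and 2.90. The peak near the chromosome XII region was thus above the median of its list. The chromosome VII region is a strong open region, with fold enrichments of 7.23 in the WT-labelled list and 7.65 in the Orc4-IHΔ-labelled list.

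At the far end, chromosome II held 3 of the 5 regions farthest from ORC. The farthest, from 650852 to 651693, was 27624 bp from any ORC peak, and the regions at 645096 and 642580 were 21868 and 19352 bp away. The other 2 lay on chromosome XIV from 783437 to 784123, 23947 bp away, and on chromosome X from 316305 to 316955, 19890 bp away. The chromosome XIV region ends at the last listed position on its chromosome and is among the 59, with 5.83 in the WT-labelled list and 2.68 in the Orc4-IHΔ-labelled list. The pair at 642580 and 645096 on chromosome II was also in that group, with 3.58 and 3.49 in the WT-labelled list and 2.19 for each in the Orc4-IHΔ-labelled list. The Orc4-IHΔ-labelled list covered 278 and 169 bp of this pair, so both met the width limit through the WT-labelled list. The farthest region of all was not among the 59, with 3.49 and 4.08.

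The adjacent ATAC-seq regions were also counted, with no test, and the shares were nearer to those of narrower regions without ORC than to those of wide regions with ORC. Neither adjacent ATAC-seq region carried an ORC peak for 128 of the 359 (35.7%, exact 95% interval 30.7 to 40.9%), against 184 of 841 wide regions with ORC (21.9%, 19.1 to 24.8%) and 156 of 506 narrower regions without (30.8%). Over all 2101 regions it was 24.8%. Both adjacent regions carried ORC for 69 (19.2%), against 240 (28.5%) of the wide regions with ORC and 26.3% of all regions. An adjacent region was itself 1 of the 359 for 114 (31.8%), against 154 of 506 narrower regions without ORC (30.4%), 181 of 841 wide regions with ORC (21.5%) and 24.7% of all 2101 regions. The 114 formed 40 pairs, 10 runs of 3 and 1 run of 4. The run of 4 lay on chromosome II from 624710 to 645641, and a run of 3 followed from 650852 to 669052. These counts are a description, since neighbours share an ORC-poor stretch and are not independent.

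The regions were found on all 16 nuclear chromosomes and not on the 2-micron plasmid. Their number ran from 6 on chromosome VI to 45 on chromosome IV, and from 2.11 per 100 kb on chromosome XVI to 5.23 per 100 kb on chromosome IX. As a share of the wide regions, they made up 44.2% on chromosome IX (23 of 52, exact 95% interval 30.5 to 58.7%) and 42.6% on chromosome VIII (20 of 47), but 21.4% on chromosome VI (6 of 28), 21.9% on XII (23 of 105) and 22.0% on XVI (20 of 91). The intervals of all 16 chromosomes overlapped. The 59 regions lower in the Orc4-IHΔ-labelled list were spread over all 16 chromosomes, with the most on VII (11 of 37), then IV (7 of 45) and X (6 of 23). Chromosome IX, richest in regions without ORC, had 1 of 23. Within 10000 bp of a chromosome end, taken as the last position in any list, there were 5 of the 359 (1.39%) and 24 of the 841 with ORC (2.85%).

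**Figure D5:**
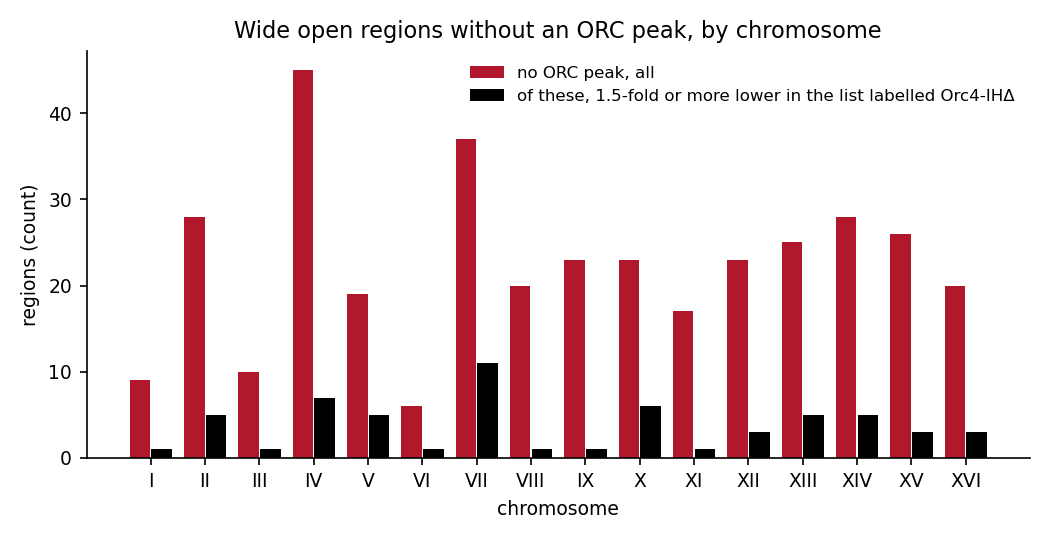
Number of wide open regions without an ORC peak on each nuclear chromosome (vertical, count; red, 359 in all) and of those at least 1.5-fold lower in the Orc4-IHΔ-labelled ATAC-seq list (black, 59 in all). Chromosome IV has the most regions, 45, and chromosome VII the most lower ones, 11.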

How the data were processed

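Peak lists were used, 4 in all, 1 per strain for ORC ChIP-seq and for ATAC-seq. Libraries for MCM, BrdU and MNase-seq were not analysed here. The submitters' processing notes name Bowtie 1.2.2, Bowtie2 2.3.4.1, Picard, SAMtools 1.3.1, bedtools 2.27.1, MACS2 2.1.1.20160309 and the build sacCer2. The names of the ATAC-seq lists read as duplicates and mitochondrial reads removed, and peaks called at p 0.01 on cut sites shifted by -75 and extended to 150 bp. The fold enrichment, a linear ratio over background, and the −log10 p and −log10 q values were deposited by the authors, as were the summit offsets. Depth per library is not given by these values.

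Lines of both ATAC-seq lists were merged, a region took the highest fold enrichment of its lines in each list, and an overlap of 1 bp counted. ORC summits were not used, since 90 WT and 225 mutant lines list a summit outside the line. Shares carry exact Clopper-Pearson intervals at the 95% level, which cover counting error only. No test between strains was made, because each has 1 list. Regions are named by rank in width, lower fold enrichment, distance to ORC and ratio between lists, and at the width limit. The regions and lists were chosen with earlier results of these data known. The merging code was tested on simulated data. The alternatives were other minimum widths, other joining and overlap rules, stricter lists, the mean of the lists, a centred ratio and other folds. No gene, sequence or motif is reported, since the gene table at hand is of another build. Tables were handled in pandas 2.3.3 and numpy 2.4.6 under Python 3.11.15, intervals in scipy 1.17.1 and plots in matplotlib 3.10.9.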

Additional observations from a re-analysis of the deposited data

How the results depend on the processing

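Over 9 results, 59 of 89 alternative values stayed within 1.5 times the count, or within the 95% interval of the share or median, and 30 moved. Those that stayed include the setting of ATAC-seq lines with a −log10 q of 2 or more, where every value equalled the main one. That setting could hardly change them. The lowest −log10 q of a wide region was 3.93 in the WT-labelled list and 3.30 in the Orc4-IHΔ-labelled list. The number of regions, 359, depended on the width limit and on the ORC lists. At 400 bp the share without ORC was 34.5% and the median lower fold enrichment 3.22. At 750 bp there were 133 regions (18.6%), with a median lower fold enrichment of 4.38, a median log2 ratio of 0.026, a median distance to a mutant ORC peak of 2074 bp, and 16 lower and 4 higher by 1.5-fold in the Orc4-IHΔ-labelled list. At 1000 bp the same values were 56 (14.0%), 5.10, 0.081, 2073.5 bp, 5 and 2, so the sign of the median ratio, -0.02 at 500 bp, turned at both wider limits. It was also just above 0 at 400 bp (0.00038) and with the ORC lists restricted to their stronger lines (0.0037). With only the stronger ORC lines, those not under the median of their list, 657 regions (54.8%) had no ORC, with a median lower fold enrichment of 4.00, a width of 735 bp, distances of 12274 bp to WT and 5075.5 bp to mutant peaks, and 19 higher by 1.5-fold. The mean of both lists had a median of 3.98. The counts past 1.5-fold under these settings and the alternatives that follow were chosen after seeing the data. With 500 bp or more in each list, 15 were lower and 3 higher. At 1.25-fold, 98 were lower and 42 higher, and at 2-fold, 14 and 1. No paired analysis was possible because each strain has 1 list per assay. A missing ORC peak is limited by a depth that the lists do not give.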

Other observations

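A table of the newer R64 assembly lists 275 nuclear tRNA genes, used here only as a number per chromosome, since its coordinates are not those of the lists. Chromosome VII has the most, 36, and also the most wide regions without ORC that were at least 1.5-fold lower in the Orc4-IHΔ-labelled ATAC-seq list, 11. Over the 16 chromosomes the number of tRNA genes had a Spearman's rho of 0.83 with the number of these lower regions and of 0.65 with all regions without ORC. It was just as high, 0.85, for wide regions with ORC, and the lower regions also followed the number of all wide regions, with a rho of 0.73. Of the 59 lower regions, 44 met the width limit through the WT-labelled list, in which they are high. The rho was not recomputed without them. With these counts, a relation to tRNA genes cannot be told apart from a relation to the number of wide regions on a chromosome. The relation to chromosome length was not tested, no p is given, and the counts were known before they were compared. Whether any of these regions holds a tRNA gene was not tested.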
